A study of Rattus norvegicus with 28 samples.

Results

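A set of 10 genes that respond to glucocorticoids or carry the response were followed in rat hippocampus after traumatic brain injury (TBI) and antidepressant treatment. They were Nr3c1, Nr3c2, Fkbp5, Sgk1, Tsc22d3, Zbtb16, Pdk4, Cdkn1a, Errfi1 and Nfkbia, and they were chosen by name: every non-control probe whose RefSeq accession maps to 1 of these rat symbols was taken. This gave 13 probes for 10 genes, of 15637 genes with a symbol on the array. For 8 of the 10 genes a probe was detected throughout 1 group or more and was tested, whereas Pdk4 and Zbtb16 were not well above background on any of the 14 arrays and have no level or fold here.

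Adult male Sprague-Dawley rats received either a sham procedure (Sham, 2 rats) or a parasagittal fluid-percussion injury (TBI, 3 rats). The other 3 groups, each of 3 injured rats, were given imipramine (TBI+Imipramine), Prozac (fluoxetine, TBI+Prozac) or Zoloft (sertraline, TBI+Zoloft) 1 h after injury. The untreated rats received the vehicle, per the study's methods. Hippocampal RNA was taken 24 h after injury and hybridised to 1-colour Agilent arrays, 1 array per rat. Levels are log2 values in which the 75th percentile of an array's detected probes was set to 0, and 1 unit is a factor of 2. Levels of different probes cannot be set against each other.

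Both Sham arrays were on slide 3, which was scanned on another day than the rest. Slide and scan therefore cannot be told apart from injury in any comparison with Sham. The 3 TBI arrays shared slide 1 with TBI+Prozac rat 1, and the other 8 drug arrays were on slide 2. Markers of hippocampal cells were present. The summed linear level of the 4 measured neuron markers was 7.60 to 8.30 in Sham and 6.60 to 7.92 in TBI. It was 7.28 to 8.47 with imipramine, 8.87 to 9.05 with Prozac and 6.57 to 7.92 with Zoloft. That of the 5 astrocyte markers ran from 11.6 to 23.0 over all rats. The 2 measured choroid plexus markers ran from 0.196 to 104.5 without following the groups. The array measures whole tissue, so a smaller number of cells of a type and less RNA per cell cannot be told apart.

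Glucocorticoids enter the cell and bind the glucocorticoid receptor, encoded by Nr3c1, or the higher-affinity mineralocorticoid receptor, encoded by Nr3c2. Both are abundant in the hippocampus, where they take part in shutting off the stress response. The hormone-bound receptor moves to the nucleus and binds glucocorticoid response elements, imperfect palindromes of a hexamer, near genes such as Fkbp5, Sgk1 and Tsc22d3. Nfkbia is induced both by glucocorticoids and by NF-kappa B itself, whose activity it restrains.

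The RefSeq promoter table of the rat assembly GRCr8 held windows of 300 bases, running from 250 bases before a transcription start to 50 bases after it, for 8 of the 10 genes. Nr3c2 and Zbtb16 had no entry. The 13 windows of these 8 genes were searched on both strands for the palindromic response element (AGAACA, any 3 bases, TGTTCT), for its single hexamer (AGAACA or TGTTCT, which the full element also contains) and for the kappa B motif. No window held the full element or the hexamer. In all 33469 windows of the table these were present in 0.0149% and 20.7%, respectively. The kappa B motif was found in the window of 1 gene, Nfkbia, and in 7.51% of all windows. A match is a description of the letters and no match says nothing about binding elsewhere.

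The windows are shown for the 2 genes that passed the test in any comparison below, Tsc22d3 with its 3 annotated starts and Nfkbia. All lie on the minus strand and are written 5′ to 3′, with capitals marking the kappa B motif, which begins 31 bases before the Nfkbia start.
Nfkbia, chr6:78597023-78597322: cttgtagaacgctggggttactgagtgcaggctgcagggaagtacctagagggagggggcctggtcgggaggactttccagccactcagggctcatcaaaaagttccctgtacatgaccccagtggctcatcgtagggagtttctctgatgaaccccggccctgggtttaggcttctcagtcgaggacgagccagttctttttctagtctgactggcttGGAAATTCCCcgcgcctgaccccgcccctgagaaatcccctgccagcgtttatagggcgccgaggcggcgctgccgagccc
Tsc22d3, chrX:109066340-109066639: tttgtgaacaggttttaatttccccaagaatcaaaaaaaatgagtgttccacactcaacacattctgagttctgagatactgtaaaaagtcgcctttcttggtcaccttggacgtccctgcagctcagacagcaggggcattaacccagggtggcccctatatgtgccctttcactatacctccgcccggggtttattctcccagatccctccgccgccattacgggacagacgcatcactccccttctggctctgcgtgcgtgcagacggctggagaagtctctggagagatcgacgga
Tsc22d3, chrX:109065381-109065680: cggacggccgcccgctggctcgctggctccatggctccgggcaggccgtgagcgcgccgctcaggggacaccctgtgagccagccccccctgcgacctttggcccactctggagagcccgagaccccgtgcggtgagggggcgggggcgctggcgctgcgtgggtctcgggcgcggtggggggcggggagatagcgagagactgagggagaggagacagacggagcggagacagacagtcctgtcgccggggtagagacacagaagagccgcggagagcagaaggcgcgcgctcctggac
Tsc22d3, chrX:109009985-109010284: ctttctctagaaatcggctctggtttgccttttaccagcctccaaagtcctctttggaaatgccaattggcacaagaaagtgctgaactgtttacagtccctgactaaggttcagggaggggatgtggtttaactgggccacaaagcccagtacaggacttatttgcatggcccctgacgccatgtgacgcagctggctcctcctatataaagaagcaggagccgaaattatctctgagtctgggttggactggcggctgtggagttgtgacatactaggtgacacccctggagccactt

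The first question was which of these genes differed between TBI and Sham. One of the 8 tested genes, Tsc22d3, passed limma's test at an adjusted p under 0.05, and it was lower in TBI. Among all 17322 probes tested, 16.6% were called and 8.32% were called lower in TBI. The remaining 7 genes did not pass. The median difference of the 8 genes was -0.54 on the log2 scale, and that of all probes was 0.0015. In 6 of the 8 genes the Sham and TBI rats did not overlap, while 42.2% of all probes showed no overlap between these groups.

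Tsc22d3 encodes the glucocorticoid-induced leucine zipper protein, which mediates part of the anti-inflammatory action of the hormone. Its log2 level was 1.35 and 1.43 in the Sham rats, and 0.26, 0.55 and 0.78 in the TBI rats. Both Sham rats lay above every one of the 12 injured rats. The level was 1.82-fold lower in TBI (log2 difference -0.87, SE 0.19, 95% interval -1.27 to -0.46, limma adjusted p = 0.0090). Without Sham rat 2, the adjusted p was 0.070 and no gene of the 8 was called; without Sham rat 1, Tsc22d3 was called along with Nr3c2.

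**Figure D1:**
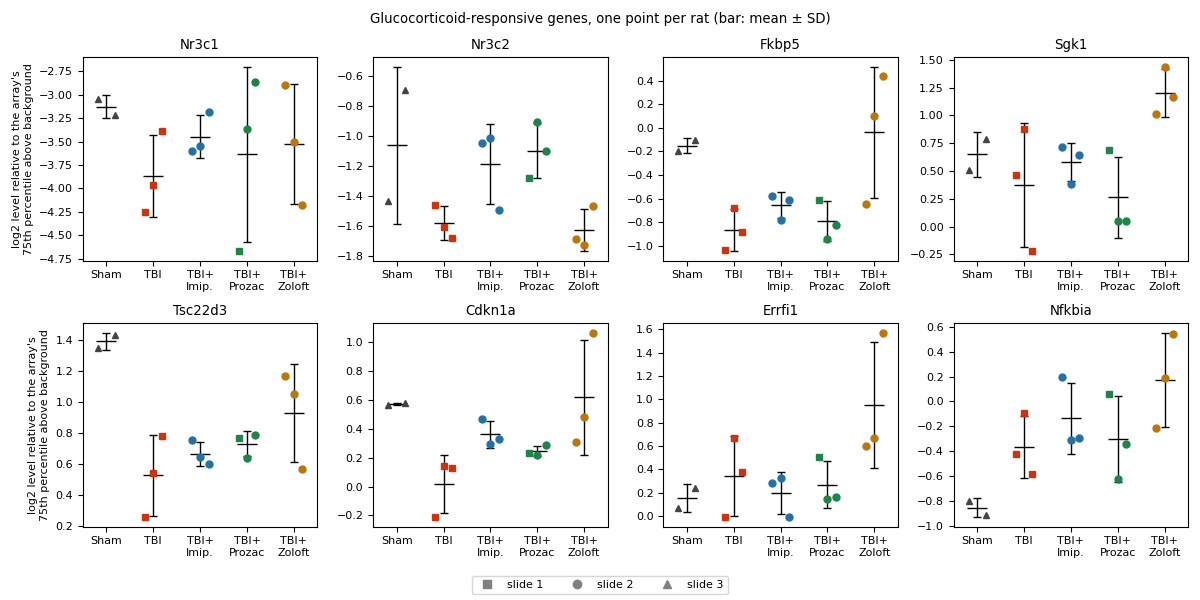
Log2 level of the 8 measured genes on the y axis (relative to the 75th percentile of each array) by group on the x axis, 1 point per rat, with bars for mean ± SD and symbols for the slide. For Tsc22d3 the Sham rats, at 1.35 and 1.43, sit above all injured rats, and for Fkbp5 and Errfi1 the highest point is TBI+Zoloft rat 3.

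Both receptor genes had lower mean levels in TBI without passing the test. Nr3c1 stood at -3.04 and -3.22 in Sham and at -4.25, -3.97 and -3.39 in TBI, a log2 difference of -0.74 (SE 0.47, limma adjusted p = 0.31). These groups did not overlap, but the interval of the difference, -1.76 to 0.28, is wide. For Nr3c2 the Sham rats differed among themselves, with -1.44 and -0.69, and the TBI rats had -1.46, -1.61 and -1.68. Here Sham rat 1 lay next to the highest TBI rat, and the difference of -0.52 (SE 0.22) had a limma adjusted p of 0.13. A second Nr3c2 probe, above background on 8 of 14 arrays, gave -0.13 with overlapping groups, and a second Nr3c1 probe was not above background on any array.

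Fkbp5 encodes a co-chaperone that holds the receptor in a state of low hormone affinity and is itself induced by the hormone. Its level was -0.20 and -0.11 in Sham and -1.04, -0.68 and -0.89 in TBI. The groups did not overlap, and the difference of -0.72 (SE 0.25, 95% interval -1.26 to -0.17) had a limma adjusted p of 0.071. Sgk1, a serum- and glucocorticoid-induced kinase that regulates ion transport, had 0.51 and 0.79 in Sham and 0.47, 0.88 and -0.22 in TBI. These groups overlapped, with a difference of -0.28 (SE 0.29, limma adjusted p = 0.56).

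Nfkbia, the inhibitor that keeps NF-kappa B in the cytoplasm, stood at -0.80 and -0.91 in Sham and at -0.42, -0.09 and -0.58 in TBI. All TBI rats lay above both Sham rats, and the difference of 0.49 (SE 0.26, 95% interval -0.07 to 1.05) had a limma adjusted p of 0.22. Errfi1, a feedback inhibitor of the epidermal growth factor receptor, had 0.07 and 0.24 in Sham and -0.01, 0.67 and 0.37 in TBI. The TBI rats spanned both Sham rats, and the difference was 0.19 (SE 0.28, limma adjusted p = 0.69).

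The 2 probes of Cdkn1a, the cyclin-dependent kinase inhibitor p21, went opposite ways. The brighter probe, used for the gene, had 0.57 and 0.58 in Sham and -0.21, 0.14 and 0.13 in TBI, a difference of -0.55 (SE 0.20, limma adjusted p = 0.075). The other probe had -2.07 and -2.14 in Sham and -1.40, -0.39 and -1.36 in TBI, a difference of 1.06 (SE 0.58, limma adjusted p = 0.24). On each probe the groups did not overlap, in opposite directions. The direction for Cdkn1a is therefore not settled, and its mean over both probes was 0.25. Scaling by the percentile over all probes, by quantiles, by the median, with normexp background correction or through the authors' series table brought the brighter probe under the threshold, with limma adjusted p from 0.017 to 0.042.

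**Figure D2:**
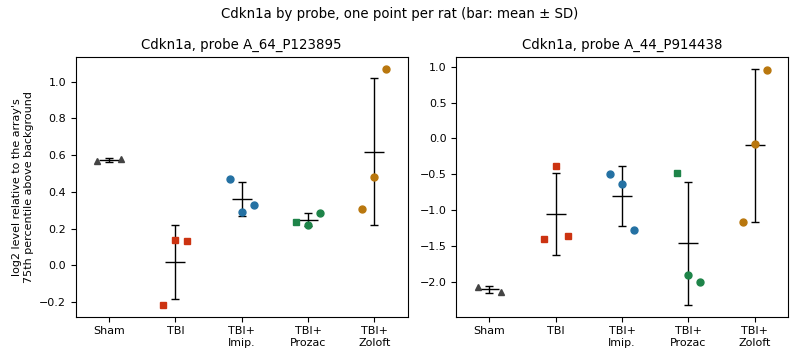
Log2 level of Cdkn1a on its 2 probes (y axis, relative to the 75th percentile of each array) by group, 1 point per rat with mean ± SD. The left probe is lower in TBI than in Sham and the right probe is higher, while TBI+Zoloft rat 3 is the highest rat on both.

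The second question was whether an antidepressant changed these genes in injured rats. The 3 comparisons share the same TBI rats and are given side by side. None of the 8 genes passed limma's test in any of them, where 2.85% of all probes were called for imipramine, 0.00577% for Prozac and 1.38% for Zoloft. At an unadjusted p under 0.05 there were 0, 1 and 6 of the 8 genes, respectively, against 19.7%, 10.1% and 15.2% of all probes. The methods' t-test at its own threshold, which also asks for a minimum fold, gave 0, 1 and 0, and no share of all probes is given for it. The groups were without overlap in 1, 2 and 3 of the 8 genes, against 25.8%, 15.1% and 15.3% of all probes. The median difference of the 8 genes from TBI was 0.22 with imipramine, 0.14 with Prozac and 0.57 with Zoloft on the log2 scale. That of all probes was 0.20, 0.15 and 0.015, so the first 2 medians lay near the general shift of their arrays and the Zoloft median lay above it.

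With Zoloft, the largest differences from TBI were in Fkbp5 and Sgk1. Fkbp5 was -0.65, 0.10 and 0.44 in the 3 rats, so rat 1 lay just above the highest TBI rat (-0.68) and the other 2 lay above both Sham rats. The difference was 0.83 (SE 0.22, 95% interval 0.35 to 1.32, limma adjusted p = 0.088). Sgk1 was 1.01, 1.44 and 1.17, and every Zoloft rat exceeded all 11 rats of the other groups. Its difference from TBI was also 0.83 (SE 0.26, 95% interval 0.27 to 1.40, limma adjusted p = 0.13).

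Cdkn1a was 0.31, 0.48 and 1.07 on its brighter probe with Zoloft, without overlap with TBI (difference 0.60, SE 0.18, limma adjusted p = 0.12). On the other probe the values were -1.17, -0.08 and 0.96, overlapping with TBI (difference 0.95, SE 0.52, limma adjusted p = 0.42). Errfi1 was 0.60, 0.67 and 1.57, a difference of 0.60 (SE 0.25, limma adjusted p = 0.27), with 2 rats inside the TBI range. Nfkbia was -0.21, 0.19 and 0.55 (difference 0.54, SE 0.23, limma adjusted p = 0.28), and Tsc22d3 was 1.17, 1.05 and 0.57 (difference 0.40, SE 0.17, limma adjusted p = 0.27). In both, 1 Zoloft rat lay within the TBI range.

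The Zoloft rats were not alike. Rat 3 was the highest of its group in 5 of the 8 genes and the lowest in 2, Nr3c1 and Tsc22d3. Rat 1 was the lowest in 5. Without rat 3 the difference from TBI was 0.59 for Fkbp5, 0.38 for Cdkn1a, 0.29 for Errfi1 and 0.36 for Nfkbia, with Sgk1 at 0.85 and Tsc22d3 at 0.58, and no gene was called. Without rat 1, Fkbp5 passed the test (difference 1.14, limma adjusted p = 0.039). With normexp background correction Fkbp5 and Cdkn1a passed (limma adjusted p = 0.046 for each). The Zoloft arrays and the TBI arrays were on different slides, and with slide as a fixed term, which rests on the single TBI+Prozac array of slide 1, no gene was called. In that fit the differences from TBI were 1.47 for Sgk1, 1.105 for Fkbp5, 1.09 for Nfkbia, 0.96 for Errfi1, 0.58 for Cdkn1a and 0.46 for Tsc22d3, and those of the receptor genes were -1.22 for Nr3c1 and -0.32 for Nr3c2, each with a limma adjusted p of 0.998.

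Against TBI, the receptor genes did not stand out with Zoloft. Nr3c1 was -2.90, -3.50 and -4.18, overlapping with the TBI rats (difference 0.34, SE 0.42). Nr3c2 was -1.69, -1.73 and -1.47, overlapping with TBI (difference -0.05, SE 0.20, 95% interval -0.47 to 0.38). Of the 31 measured markers of neurons, glia, endothelium, blood, neutrophils and choroid plexus, none was called by limma between TBI+Zoloft and TBI. At an unadjusted p under 0.05 there were 4. Of all probes, 1.38% were called and 15.2% had such an unadjusted p. The summed level of the blood markers was 52.9 to 93.6 with Zoloft and 41.7 to 52.5 in TBI, without overlap, and its part in the differences above was not tested. Of the 5 microglial markers, Csf1r did not overlap with TBI (-0.61, limma adjusted p = 0.14). Aif1, P2ry12, Itgam and Cd68 overlapped, at -0.15, -0.65, 0.18 and 0.32. Csf1r was called lower with Zoloft than with imipramine and Prozac (limma adjusted p = 0.038 for each), where 5.29% and 3.69% of all probes were called.

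**Figure D3:**
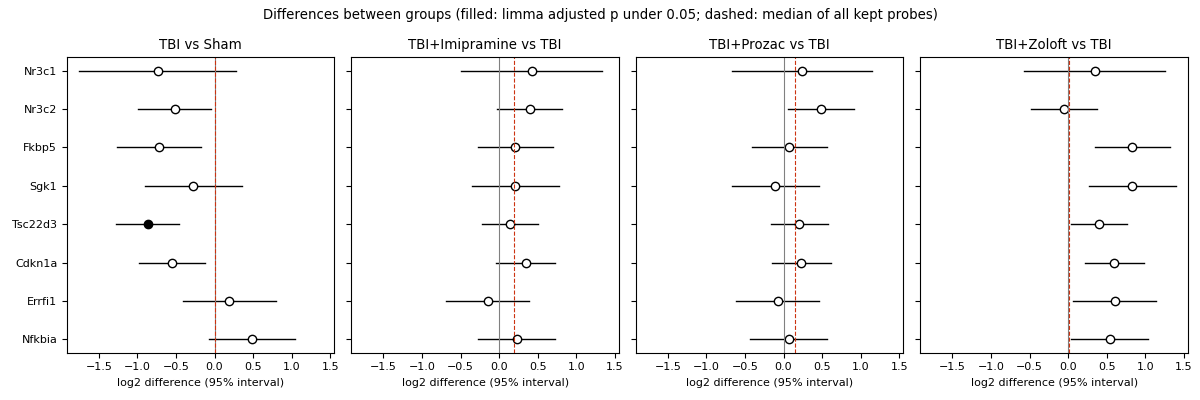
Log2 difference (x axis) of each gene (y axis) between TBI and Sham and between each drug group and TBI, with 95% intervals from limma. The filled point, Tsc22d3 at -0.87 in TBI against Sham, passed the adjusted threshold, and the dashed line is the median of all 17322 probes.

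With imipramine, the differences from TBI lay between -0.15 (Errfi1) and 0.42 (Nr3c1). The imipramine and TBI arrays were on different slides, so slide and drug cannot be told apart in this direct comparison. With slide as a fixed term, which rests on the single TBI+Prozac array of slide 1, both signs turned, to 0.20 for Errfi1 and -1.14 for Nr3c1. Relative to the median of all probes, which was itself 0.20 higher than in TBI, Fkbp5, Sgk1 and Nfkbia differed by 0.013, 0.0095 and 0.030. Fkbp5 was -0.57, -0.78 and -0.61 and Tsc22d3 was 0.75, 0.65 and 0.60 in the 3 rats. Tsc22d3 thus stayed within the TBI range in all 3 rats, with a difference of 0.14 whose 95% interval was -0.23 to 0.50. Cdkn1a (0.47, 0.29 and 0.33 on the brighter probe) was the gene without overlap with TBI, by 0.34 (SE 0.18, limma adjusted p = 0.30). Its other probe gave 0.24 with overlap. Nr3c2, at -1.05, -1.02 and -1.49, was higher by 0.40 (SE 0.20, limma adjusted p = 0.29) with 1 rat inside the TBI range.

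With Prozac, the differences lay between -0.11 (Sgk1) and 0.48 (Nr3c2). Nr3c2 was -1.28, -0.91 and -1.10 and every Prozac rat exceeded every TBI rat, which left a limma adjusted p of 0.44 (SE 0.20, 95% interval 0.06 to 0.91). Relative to the median of all probes the Nr3c2 difference was 0.34. The second Nr3c2 probe gave 0.20 with overlap. Cdkn1a also did not overlap with TBI on its brighter probe (difference 0.23), while its other probe gave -0.42 with overlap. None of the 31 cell markers was called by limma between TBI+Prozac and TBI. At an unadjusted p under 0.05 there were 5, against 10.1% of all probes. They were all 4 measured neuron markers, Snap25 (0.35), Syt1 (0.59), Neurod2 (0.36) and Slc17a7 (0.59), and the microglial marker Itgam. Itgam was higher by 0.97 without overlap with TBI (limma adjusted p = 0.27), while the other microglial markers overlapped. The summed neuron level was 8.87 to 9.05 with Prozac and 6.60 to 7.92 in TBI, and its part in the Nr3c2 difference was not tested. Fkbp5 was -0.61, -0.94 and -0.82, a difference of 0.08 whose interval was -0.41 to 0.56. Sgk1 was 0.69, 0.05 and 0.05, and Tsc22d3 was 0.77, 0.64 and 0.79. The rat on slide 1 with the TBI arrays, Prozac rat 1, had the lowest Nr3c1 level of all 14 rats, -4.67, against -3.36 and -2.87 in the other 2.

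**Figure D4:**
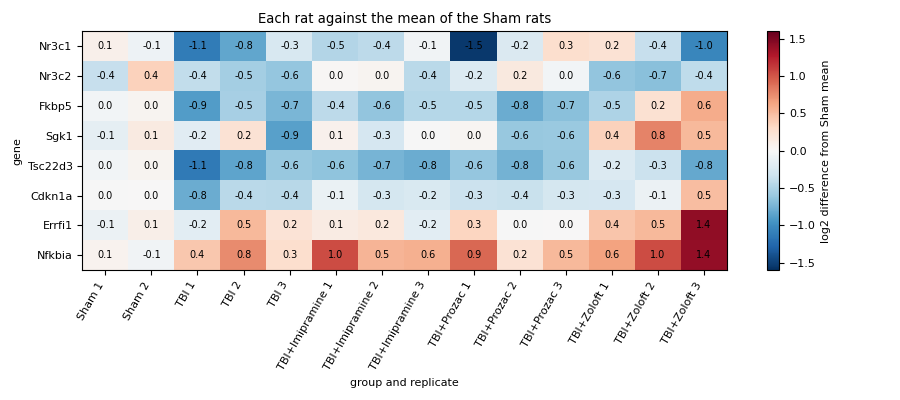
Log2 difference of each rat (x axis, group and replicate) from the mean of the Sham rats for each gene (y axis), in colour and as a number. Tsc22d3 is below 0 in all 12 injured rats and Nfkbia above 0 in all 12, while the Zoloft column of rat 3 holds the values of 1.4 for Errfi1 and Nfkbia.

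The third question was how far treated rats stood from Sham. These comparisons share the 2 Sham rats with each other and with TBI against Sham, so a low or high Sham value enters each of them. Tsc22d3 was called lower with imipramine (difference -0.73, SE 0.19, limma adjusted p = 0.016) and with Prozac (-0.66, SE 0.19, limma adjusted p = 0.035). It was the gene called of the 8 in each, where 23.4% and 14.9% of all probes were called, 3.6% and 3.16% being lower than Sham. Relative to the median of all probes, which lay 0.18 and 0.14 above Sham, these differences were -0.91 and -0.80. With Zoloft the Tsc22d3 difference was -0.46 (SE 0.19, 95% interval -0.87 to -0.05, limma adjusted p = 0.17). The Prozac call was lost when any 1 Sham or Prozac rat was left out, with no filter on dim probes and with the methods' t-test after adjustment, and the imipramine call without either Sham rat or without imipramine rat 2.

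In TBI+Zoloft against Sham the gene called was Nfkbia, 2.04-fold higher (difference 1.03, SE 0.26, 95% interval 0.47 to 1.59, limma adjusted p = 0.037), where 5.95% of all probes were called, 4.16% being higher than Sham. All 3 rats lay above both Sham rats. The call was lost without either Sham rat, without Zoloft rat 2 or 3, with normexp background correction, with no filter on dim probes and with the methods' t-test after adjustment. For imipramine Nfkbia was 0.19, -0.31 and -0.29 (difference from Sham 0.72, limma adjusted p = 0.062), and for Prozac it was 0.06, -0.63 and -0.34 (0.55, limma adjusted p = 0.17). All 12 injured rats were above both Sham rats for this gene. Fkbp5 remained below Sham in every imipramine and Prozac rat without passing (differences -0.51 and -0.64, limma adjusted p = 0.17 and 0.11), whereas the Zoloft difference from Sham was 0.11 with an interval from -0.43 to 0.66. Nr3c2 was below both Sham rats in every Zoloft rat without passing (difference -0.57, SE 0.22, limma adjusted p = 0.15). The highest Zoloft rat, at -1.47, lay next to Sham rat 1, at -1.44. Over the 8 genes the groups were without overlap with Sham in 4, 4 and 5 genes for imipramine, Prozac and Zoloft, against 59.5%, 52.2% and 38.2% of all probes. Cdkn1a was counted for imipramine and Prozac, being lower on its brighter probe (-0.21 and -0.33). Its other probe was higher without overlap (1.30 and 0.64), so its direction is not settled here either. With Zoloft the brighter probe gave 0.04 with overlap. The other probe gave 2.01 without overlap (SE 0.58, limma adjusted p = 0.063).

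The 3 drugs were compared with each other in 3 pairs and in 1 test of any difference. Imipramine is a tricyclic compound, and fluoxetine and sertraline are selective serotonin reuptake inhibitors of different scaffolds. None of the 8 genes was called in any pair or in the joint test, in which 3.18% of all probes were called. At an unadjusted p under 0.05 the joint test had 4 of the 8 genes, against 22.5% of all probes. In the pairs 0, 4 and 4 genes had such a p, in the order imipramine against Prozac, imipramine against Zoloft and Prozac against Zoloft. The shares of all probes under the same rule were 6.91%, 23.6% and 21%. Of all probes, 0.00577% were called between imipramine and Prozac, 5.29% between imipramine and Zoloft and 3.69% between Prozac and Zoloft. Sgk1 was lower in mean log2 level with Prozac than with Zoloft (difference -0.94, SE 0.26, 95% interval -1.51 to -0.38, limma adjusted p = 0.064) and the rats did not overlap. Fkbp5 was -0.76 in the same comparison (SE 0.22, limma adjusted p = 0.082) with overlap through Zoloft rat 1. Against imipramine, which was on the same slide, Zoloft rats had mean levels higher by 0.62 for Fkbp5, 0.62 for Sgk1 and 0.75 for Errfi1, with limma adjusted p of 0.12, 0.17 and 0.090. Nr3c2 went the other way. With Prozac it exceeded Zoloft by 0.53 without overlap (SE 0.20, limma adjusted p = 0.14). With imipramine it exceeded Zoloft by 0.44 with overlap (SE 0.20, limma adjusted p = 0.19). Its second probe, above background on 8 of 14 arrays, gave 0.61 and 0.57 without overlap (limma adjusted p = 0.12 for each). That probe was not above background in any Zoloft rat. Its Zoloft levels of -6.50, -6.31 and -6.57 lay under the lowest above-background level of each array (-6.38, -6.02 and -6.51). The size of these differences and the lack of overlap therefore rest on background values. Imipramine and Prozac differed by -0.09 to 0.32 over the 8 genes, with an interval of -0.43 to 0.30 for Tsc22d3 and -0.35 to 0.62 for Fkbp5.

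The order of group means placed Sham highest for Nr3c1, Nr3c2 and Tsc22d3, and lowest for Errfi1 and Nfkbia. TBI+Zoloft was highest for Fkbp5, Sgk1, Cdkn1a, Errfi1 and Nfkbia. For Tsc22d3 the order from low to high was TBI, TBI+Imipramine, TBI+Prozac, TBI+Zoloft and Sham, and no 2 neighbours among the injured groups differed by limma's test. The genes with the pattern of group means most like that of Tsc22d3, by the root mean square distance of the 4 differences from Sham over 8697 genes, were Cox6b2 (0.030) and Bcl2l2 (0.063).

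Genes around this response were taken as lists. Of 26 measured other genes that glucocorticoids are known to induce, 5 were higher and 1 lower in TBI than in Sham, beside 8.3% and 8.32% of all probes. Lcn2, a siderophore-binding protein of acute inflammation, differed by 7.06 (SE 0.92, limma adjusted p = 0.00059), with 1 of 2 Sham arrays above background. Anxa1, an anti-inflammatory annexin, differed by 2.26 (limma adjusted p = 0.00063) and the metallothionein Mt1 by 1.75 (limma adjusted p = 0.042). Cebpd and Mt2A also rose, and Sult1a1, a sulfotransferase, fell by 1.11 (limma adjusted p = 0.049). The median of the list was 0.09. Several of these genes are also induced by inflammation, and in the same rats 2 of 5 microglial markers (Itgam and Cd68), both measured neutrophil markers (S100a8 and S100a9) and 1 of 5 astrocyte markers (Gfap, by 1.88) were higher in TBI, 1 of 4 endothelial markers (Cldn5) was higher and 1 of 4 neuron markers (Syt1) lower, with the summed microglial level at 4.72 to 5.38 against 2.70 to 3.80 in Sham and the summed neutrophil level at 0.37 to 2.68 against 0.073 to 0.075. The other astrocyte markers did not pass, with Slc1a2 at 0.19, Aqp4 at -0.068, Gja1 at -0.63 and Aldh1l1 at -0.68, and the median of that list was -0.068. The neutrophil and monocyte markers Mmp8 and Ccr2 did not pass the filter on background. Their part in these differences was not tested.

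Of 11 NF-kappa B pathway genes measured, 6 were called higher in TBI and none lower, beside 8.3% and 8.32% of all probes, with a list median of 1.09. Cxcl1, a neutrophil-attracting chemokine, was not well above background on either Sham array and was at least 8.70-fold higher in TBI (limma adjusted p = 0.00060). Ccl2, a monocyte-attracting chemokine above background on 1 Sham array, differed by 6.22 (SE 0.86, limma adjusted p = 0.00082), and Bcl3, a nuclear I kappa B family member also above background on 1 Sham array, by 2.87 (SE 0.56, limma adjusted p = 0.0052). Of 4 measured ErbB receptors and ligands 2 were called, both higher, against the same shares. Hbegf, a ligand, was higher by 2.10 (limma adjusted p = 0.037) and Erbb2, a receptor, by 0.78 (limma adjusted p = 0.030).

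Of 11 measured receptor chaperones and coregulators, 1 was called in TBI, the corepressor Ncor1, which fell by 0.69 (SE 0.18, limma adjusted p = 0.020), while 16.6% of all probes were called. None of 8 measured genes of steroid supply and the stress axis and none of 6 pyruvate dehydrogenase kinase, phosphatase and subunit genes was called by limma, with 2 and 0 at an unadjusted p under 0.05, against 30.8% of all probes. The hexose-6-phosphate dehydrogenase gene H6pd, whose product supplies the cofactor of local glucocorticoid regeneration, was 0.72 higher (limma adjusted p = 0.068). The steroid reductase gene Srd5a1 was called higher than Sham with imipramine (0.79, limma adjusted p = 0.0079) and Prozac (0.65, limma adjusted p = 0.030), where 23.4% and 14.9% of all probes were called, and was 0.12 from Sham with Zoloft (limma adjusted p = 0.75). It was also called higher with imipramine than with Zoloft (0.67, limma adjusted p = 0.035), a comparison in which 5.29% of all probes were called. H6pd differed from Sham by 0.77 with imipramine, 0.77 with Prozac and 0.79 with Zoloft, with limma adjusted p of 0.040, 0.055 and 0.081. Between each drug and TBI none of the 66 measured genes of these lists was called by limma, where 2.85%, 0.00577% and 1.38% of all probes were called for imipramine, Prozac and Zoloft. At an unadjusted p under 0.05 there were 10, 2 and 7 of the 66, against 19.7%, 10.1% and 15.2% of all probes. Among the 26 other induced genes the median difference from TBI was 0.14 with imipramine, 0.08 with Prozac and 0.36 with Zoloft, against 0.20, 0.15 and 0.015 for all probes.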

How the data were processed

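A set of 14 1-colour Agilent rat gene expression arrays were analysed. The authors read the slides with Agilent Feature Extraction 11.5.1.1, and the deposited scanner files hold spot intensity, background-corrected, with 0 or 1 flags of another kind per spot. Their deposited series table holds intensity values scaled per array, which lay within 5% of the scaled scanner signal for at least 99.8% of values. Its scale is linear, and log2 values were computed here.

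Outlier-flagged spots were left out, the rest averaged per probe, and each array divided by its 75th percentile over probes above background. Arrays had 14676 to 18196 of 30367 probes above background and none saturated. Probes above background throughout 1 group were kept (17322). A gene is its brightest kept probe. Accessions were named through the RefSeq table of GRCr8 (18643 probes with 1 symbol). Groups came from sample titles. Limma 3.58.1 in R 4.3.3 (lmFit, eBayes, two-sided, all 14 arrays, Benjamini-Hochberg over kept probes, threshold 0.05) was the test and was tested on simulated data. Differences are the first group minus the second. Normexp with offset 50 used median foreground signals, because the files hold no mean signal column. The number of arrays limits the precision. Replicates are separate rats, per the rat numbers in the titles and the study's methods.

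The 10 genes, the lists and the markers were chosen with earlier results of these data known. Named genes were all 10, and from each list up to 3 called genes per direction with the largest difference for TBI against Sham and no overlap. Cebpd, Mt2A, H6pd, Srd5a1 and the cell markers were named after their values were seen. The median-centred alternative and the repeats for the lists were chosen after seeing the data. The miRNA arrays were not used, and 1 gene list is not reported here.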

Additional observations from a re-analysis of the deposited data

How the results depend on the processing

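Counts of called genes among the 8 depended on the settings, and rest on 2 Sham rats. TBI against Sham gave 2 genes with quantile normalization, normexp, the percentile over all probes, the authors' series table and the median of all probes as centre, and 0 to 2 leaving out 1 array. The methods' t-test gave 3 at its own threshold and 0 after Benjamini-Hochberg. TBI+Imipramine against Sham gave 2 with probes above background on all arrays, an intensity trend, slide as a random block (correlation -0.058) and the median centre, 3 with the methods' t-test, and 0 to 1 leaving out 1 array. TBI+Prozac against Sham gave 2 with the percentile over all probes, the series table and the median centre, 3 with the methods' t-test, and 0 with no filter, the replicate block, the t-test after adjustment and each array left out. TBI+Zoloft against Sham gave 2 with the median centre, 0 with normexp, no filter, the replicate block or the adjusted t-test, and 0 to 1 leaving out 1 array. TBI+Zoloft against TBI gave 2 with normexp and 0 to 1 leaving out 1 array. The methods' t-test gave 1 for TBI+Prozac against TBI, 1 for imipramine against Zoloft and 2 for Prozac against Zoloft. No share of all probes is given for the counts of this t-test at its own threshold. Prozac against Zoloft gave 1 with probes above background on all arrays, and it, imipramine against Zoloft and the joint drug test gave 0 to 1 leaving out 1 array. By construction, no filter brings more probes into the adjustment, and leaving out an array shrinks a group. The cause of these moves was not tested.

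Tsc22d3 kept its direction in TBI against Sham in all 11 other settings (-0.90 to -0.77, limma adjusted p 0.0018 to 0.027) and with each array left out (-0.99 to -0.73, adjusted p 0.0065 to 0.070), and lost its call with the t-test after adjustment (adjusted p = 0.22). Replicate numbers did not pair the rats: over 26 same-number pairs of rats from different groups the correlation of deviations had a median of 0.0047 and exceeded 0.1 in 2. The replicate block ended the 2 calls named above and changed no other count of called genes among the 8.

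Of the 392 values of single genes under other settings, 32 turned sign, none of them called. TBI against Sham gave 0.077 for Sgk1 with normexp and 0.25 for Cdkn1a over both probes. Imipramine against TBI with normexp gave -0.048 for Nr3c1 and -0.13 for Sgk1; with slide as a fixed term -1.14 for Nr3c1 and 0.20 for Errfi1; with quantile normalization -0.027 for Tsc22d3; with the percentile over all probes, the series table and the median centre, in this order, -0.0085, -0.0098 and -0.014 for Fkbp5, -0.012, -0.013 and -0.018 for Sgk1, and -0.082, -0.083 and -0.088 for Tsc22d3. Prozac against TBI with slide as a fixed term gave -0.80 for Nr3c1, 0.31 for Sgk1 and 0.16 for Errfi1; with normexp -0.0017 for Nr3c1, -0.052 for Fkbp5 and -0.017 for Nfkbia; with quantile normalization -0.071 for Fkbp5 and -0.064 for Nfkbia; with the same 3 scalings -0.089, -0.096 and -0.094 for Fkbp5 and -0.10, -0.11 and -0.11 for Nfkbia; and -0.094 for Cdkn1a over both probes. Zoloft against TBI with slide as a fixed term gave -1.22 for Nr3c1. Leaving out 1 array, signs turned within these ranges: Sgk1 in TBI against Sham -0.53 to 0.022; imipramine against TBI, Sgk1 -0.089 to 0.46 and Errfi1 -0.33 to 0.015; Prozac against TBI, Nr3c1 -0.15 to 0.76, Fkbp5 -0.015 to 0.17, Sgk1 -0.41 to 0.14, Errfi1 -0.25 to 0.088 and Nfkbia -0.12 to 0.23; Zoloft against TBI, Nr3c2 -0.13 to 0.013.

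Called genes of the lists in TBI against Sham, under other settings and then leaving out 1 array, numbered 4 to 7 and 2 to 5 for the other induced genes (6 in the report), 2 to 6 and 3 to 6 for NF-kappa B (6), 0 to 2 and 0 to 1 for ErbB (2), 0 to 2 and 0 to 2 for chaperones and coregulators (1), 0 to 2 and 0 to 1 for steroid supply (0), and 0 throughout for the pyruvate dehydrogenase list. Over all probes the calls in TBI against Sham ran from 1268 to 4662 (2879 in the report). Against Sham they ran from 2022 to 5352 for imipramine (4046), 711 to 3588 for Prozac (2579) and 232 to 2180 for Zoloft (1031). For Zoloft against TBI they ran from 1 to 824 (239). They ran from 0 to 1306 for imipramine against Zoloft (917), 0 to 770 for Prozac against Zoloft (639) and 3 to 804 in the joint drug test (551). Shares of all probes for each single setting are not given beside the counts above.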
